A study of Homo sapiens with 6 samples.

Results

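AXL, TYRO3 and MERTK are the 3 receptor tyrosine kinases of the TAM family. They were described here together with their ligands GAS6 and PROS1 and with MET and EPHA2, a pair of receptor tyrosine kinases of other families. The 7 genes were taken by the gene symbol that the platform annotation gives to each probe, which yielded 12 probes among 48803 and 7 genes among the 18665 with a named probe. The probe with the highest mean intensity stood for each gene. The genes were proposed with the difference in AXL between the lines already known, so the differences between the lines are given for these 7 genes as a description, with no test. Tests are given only for the changes with time.

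The cells were TE13R and TE13. TE13 is a cell line of human squamous carcinoma of the esophagus, labelled as sensitive to radiation, and TE13R is a radioresistant clone derived from TE13 by repeated fractionated irradiation, which the authors received from another laboratory. Total RNA was taken from TE13R at 0, 8 and 24 h after irradiation and from TE13 at 0, 8 and 24 h, and was read on Illumina Human-6 V3 microarrays, which use a single dye. Each line and time point had 1 array, which makes 6 in all, and both lines were grown in the same medium and irradiated with X-rays from a linear accelerator. TE13R is 1 derivative of 1 parental line, and no unirradiated culture was sampled at 8 or 24 h, so that time in culture and irradiation cannot be told apart. The methods describe profiling in triplicate, but these 6 arrays carry no replicate number and the dose was not found in the sources.

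TAM receptors span the cell membrane, and their outer part binds GAS6 or protein S, the product of PROS1. Both ligands are secreted proteins whose glutamate residues are carboxylated with the help of vitamin K, and in that form they bridge the receptor to phosphatidylserine, a lipid that dying cells show on their surface. GAS6 binds all TAM receptors, whereas protein S acts mainly on TYRO3 and MERTK and is also an anticoagulant of blood plasma. AXL is known in squamous and other carcinomas for its association with a mesenchymal cell state and with resistance to therapy. MET is the receptor of hepatocyte growth factor (HGF), EPHA2 is a receptor of ephrin-A ligands, and each has been described to act together with AXL.

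Promoter sequences are shown for 4 of the genes, AXL because it differed most between the lines, and TYRO3, PROS1 and EPHA2 because they changed after irradiation in both lines. Each is the 100 bases before the annotated start of the gene, in the direction of the gene, from RefSeq on GRCh38.p14. AXL is at chr19:41219123-41219222 on the plus strand, TYRO3 at chr15:41559112-41559211 on the plus strand, PROS1 at chr3:93973897-93973996 on the minus strand and EPHA2 at chr1:16156070-16156169 on the minus strand. Capitals mark the GC box, GGGCGG on either strand (CCGCCC where it lies on the other strand).
AXL: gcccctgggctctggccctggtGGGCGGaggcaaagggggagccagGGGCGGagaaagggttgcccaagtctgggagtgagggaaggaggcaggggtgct
TYRO3: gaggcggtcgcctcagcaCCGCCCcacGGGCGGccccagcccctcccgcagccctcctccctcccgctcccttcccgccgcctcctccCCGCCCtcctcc
PROS1: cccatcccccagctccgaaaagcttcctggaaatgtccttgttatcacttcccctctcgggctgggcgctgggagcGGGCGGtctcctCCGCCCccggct
EPHA2: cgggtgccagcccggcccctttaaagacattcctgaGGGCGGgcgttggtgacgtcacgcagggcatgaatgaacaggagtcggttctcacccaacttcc
All 7 genes had a window in the RefSeq table. AXL and TYRO3 had 2 windows each, and the second window of each held 0 GC boxes. The percentages given below are over all windows in the table, not over first windows only. In the 250 bases before the first start, GGGCGG was found on 1 strand or the other in 7 of 7 genes, against 42.6% of the 35116 windows of that length in the table. TGANTCA, the core of an AP-1 site, was found only upstream of TYRO3 in the first windows, against 6.57% of all windows. GGAATG, the core of a TEAD site, was found upstream of EPHA2 and, in its second window, upstream of AXL, against 11.9% of all windows. These are matches of letters, and binding to them was not measured.

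The deposited intensities were on 1 scale, with a median of 7.95 to 7.96 and 37.3% of the probes on each array above a detection limit of 20.2. The 2 arrays of 0 h stood apart: the correlation over 24765 kept probes was 0.973 between them, 0.875 to 0.931 between one of them and a later array, and 0.942 to 0.971 among the 4 later arrays. Fitted differences between the lines are therefore also given without them, and the contrasts with 0 h at 8 and 24 h share these arrays. Of the squamous epithelial markers, 8 of 11 had a named probe, and all 8, among them KRT5, KRT14 and DSG3, were above the limit on 6 arrays. Their summed intensity was 34784 to 61051 in TE13R and 36145 to 57826 in TE13. Single markers went both ways between the lines. KRT14 gave 957, 2848 and 1069 in TE13R at 0, 8 and 24 h, against 3085, 9828 and 7598 in TE13. KRT5, SFN, PERP and DSC3 were higher in TE13R on each pair of arrays. Among 8 fibroblast markers, COL1A2, COL3A1, DCN and THY1 were above the limit on 0 arrays and only PDGFRA on all, and the sum was 159 to 293 in TE13R and 121 to 330 in TE13. Among 7 macrophage and leukocyte markers PTPRC and AIF1 were above the limit on 0 arrays. LYZ was above it on 1 array, CD163 and CSF1R on 4, CD14 on 5 and CD68 on all 6. The sum was 2345 to 4723 in TE13R and 1367 to 3498 in TE13. Of 5 endothelial markers CDH5 and KDR were above the limit on 0 arrays, PECAM1 and VWF on all, and the sum was 203 to 994 in TE13R and 78.2 to 658 in TE13.

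AXL was the gene of the set with the largest difference between the lines. The gene lies at chr19:41219223-41261766, and its brighter probe gave intensities of 137, 73.1 and 267 in TE13R at 0, 8 and 24 h, against 1309, 579 and 1000 in TE13. The highest TE13R array was below the lowest TE13 array. AXL was 9.59-fold lower in TE13R at 0 h, 7.92-fold lower at 8 h and 3.74-fold lower at 24 h. Over the 3 time points it averaged 159 ± 99.1 in TE13R and 963 ± 366 in TE13 (SD over time points, n = 3 each). On the log2(intensity + 16) scale the fitted difference was -2.57 (SE 0.27), and it was -2.29 (SE 0.26) without the 0 h arrays.

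The other AXL probe is annotated to a different transcript of the gene. It gave 125, 66.9 and 204 in TE13R at 0, 8 and 24 h, against 936, 585 and 950 in TE13. It was 7.47-, 8.75- and 4.67-fold lower in TE13R at 0, 8 and 24 h, so both probes placed every TE13R array below every TE13 array. Of all 12783 genes tested, 3.3% had their 3 TE13R arrays all below their 3 TE13 arrays, and 1.33% were at least 2-fold lower in TE13R at each of the time points. The difference of AXL was the 58th most negative among these 12783 genes, and nothing is read from this rank because AXL was picked on this contrast.

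**Figure D1:**
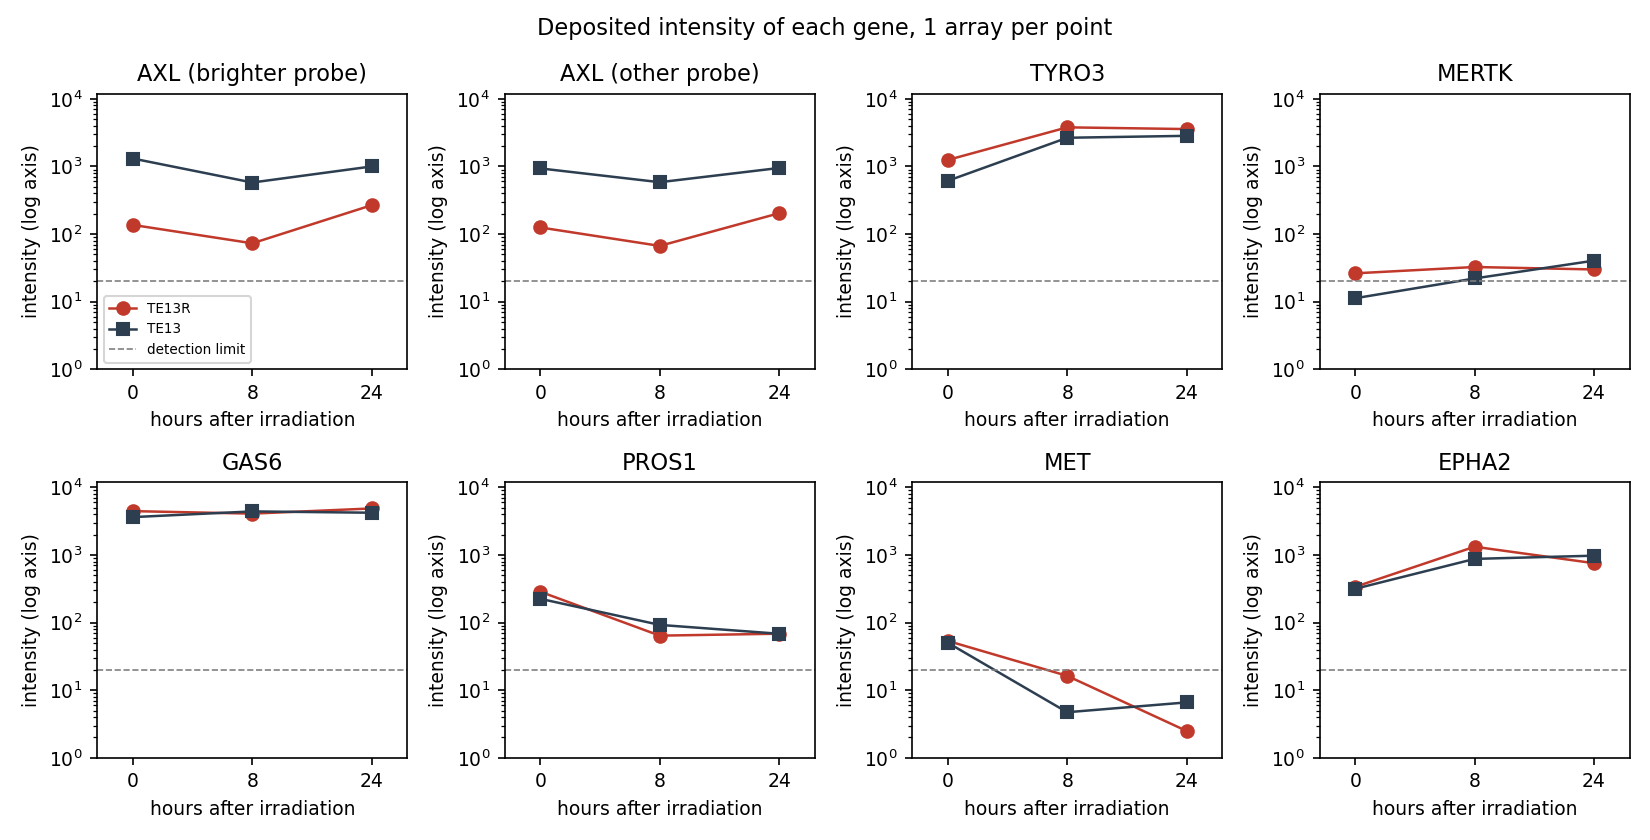
Deposited intensity (log axis) of each of the 7 genes against hours after irradiation, with both AXL probes, in TE13R (red circles) and TE13 (dark squares). Each point is 1 array and the dashed line is the detection limit of 20.2. The TE13R points of AXL lie below all its TE13 points with either probe, whereas the ranges of the lines overlap for each of the other 6 genes.

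With time, AXL was lowest at 8 h in both lines. It was lower at 8 h than at 0 h by 1.87-fold in TE13R and 2.26-fold in TE13, a log2 change of -0.97 (SE 0.33) over both lines that passed the test (limma, adjusted p = 0.0370). At 24 h it was 3.66-fold above 8 h in TE13R and 1.73-fold above 8 h in TE13, a log2 change of 1.22 (SE 0.33, limma adjusted p = 0.0499). That call lay at the threshold and was lost under 5 of the alternatives. Against 0 h, AXL at 24 h was 1.96-fold higher in TE13R and 1.31-fold lower in TE13, and the mean change of 0.26 did not pass (limma, adjusted p = 0.547). The second probe was 1.62-fold higher at 24 h than at 0 h in TE13R and 1.02-fold higher in TE13, so the lower value in TE13 was seen with 1 probe only. In order of time, the log2 difference between the lines was -3.12, -2.74 and -1.84, and whether it changed with time was not tested, since 1 array per line and time point leaves no residual degrees of freedom.

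TYRO3, at chr15:41559212-41583589, was higher in TE13R on each pair of arrays and higher after irradiation in both lines. Its probe gave 1249, 3791 and 3575 in TE13R at 0, 8 and 24 h, against 614, 2658 and 2838 in TE13. TE13R was 2.03-fold higher at 0 h, 1.43-fold higher at 8 h and 1.26-fold higher at 24 h, while the ranges of the lines over the time points overlapped. The fitted log2 difference was 0.62 (SE 0.17), or 0.42 (SE 0.12) without the 0 h arrays. At 8 h TYRO3 was 3.04-fold above 0 h in TE13R and 4.33-fold above 0 h in TE13, a log2 change of 1.84 (SE 0.21, limma adjusted p = 0.000383). At 24 h it was 2.86-fold above 0 h in TE13R and 4.62-fold above 0 h in TE13 (limma, adjusted p = 0.000611).

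MERTK, at chr2:111898607-112029561, is the TAM receptor best known from macrophages and the retinal pigment epithelium, where it serves the uptake of dying cells and shed photoreceptor membrane. It was close to the detection limit. The brighter probe gave 26.3, 32.6 and 30.0 in TE13R at 0, 8 and 24 h, against 11.3, 22.1 and 40.5 in TE13, of which the 0 h value is not above the limit. MERTK was at least 1.30-fold higher in TE13R at 0 h, 1.48-fold higher at 8 h and 1.35-fold lower at 24 h, so that the order of the lines was not the same at each time point. The fitted log2 difference was 0.23 (SE 0.31), or 0.03 (SE 0.41) without the 0 h arrays. The second probe gave 29.3, 8.82 and 1.84 in TE13R, against 27.8, 12.5 and 0.0625 in TE13, and was above the limit only at 0 h. The probes thus disagreed on the course with time: in TE13 the first was at least 2.01-fold higher at 24 h than at 0 h and the second at least 1.38-fold lower. No change with time of the first probe passed the test (limma, adjusted p = 0.482 for 8 h, 0.233 for 24 h against 0 h and 0.71 for 24 h against 8 h).

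GAS6, at chr13:113820549-113864076, was well above the limit in both lines. The brightest of its 4 probes gave 4451, 4088 and 4876 in TE13R at 0, 8 and 24 h, against 3632, 4410 and 4215 in TE13. The lines overlapped, with TE13R 1.23-fold higher at 0 h, 1.08-fold lower at 8 h and 1.16-fold higher at 24 h. The fitted log2 difference was 0.13 (SE 0.14), or 0.05 (SE 0.13) without the 0 h arrays. A second probe gave 5076, 3885 and 4403 in TE13R against 3513, 4238 and 4248 in TE13, and another, far dimmer, gave 133, 191 and 204 in TE13R against 107, 293 and 203 in TE13. The last probe was above the limit on 0 arrays. The brightest probe of GAS6 passed no test of a change with time (limma, adjusted p = 0.729 for 8 h and 0.438 for 24 h against 0 h), and its log2 changes of 0.08 and 0.17 had an SE of 0.17 each. The probes differed: at 8 and 24 h the far dimmer one was 1.43- and 1.53-fold above 0 h in TE13R and 2.74- and 1.89-fold above it in TE13. The second was 1.31- and 1.15-fold below 0 h in TE13R and 1.21-fold above it at both times in TE13. The probe mean per gene did not pass either (limma, adjusted p = 0.249 for 8 h and 0.262 for 24 h against 0 h).

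PROS1, at chr3:93873051-93973896, fell after irradiation in both lines. Its probe gave 286, 64.1 and 68.5 in TE13R at 0, 8 and 24 h, against 225, 92.5 and 68.4 in TE13. At 8 h it was 4.45-fold below 0 h in TE13R and 2.43-fold below 0 h in TE13, a log2 change of -1.53 (SE 0.32, limma adjusted p = 0.00479). At 24 h it was 4.17-fold below 0 h in TE13R and 3.28-fold below 0 h in TE13, a log2 change of -1.67 (SE 0.32, limma adjusted p = 0.00348). Between the lines PROS1 was 1.27-fold higher in TE13R at 0 h, 1.44-fold lower at 8 h and 1.002-fold higher at 24 h. The fitted log2 difference was -0.04 (SE 0.26), or -0.22 (SE 0.34) without the 0 h arrays. The human genome holds a pseudogene nearly identical to PROS1, and whether the probe tells them apart was not tested.

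MET, at chr7:116672196-116798377, was above the limit only on the 0 h arrays. Its probe gave 53.5, 16.3 and 2.5 in TE13R at 0, 8 and 24 h, against 50.3, 4.72 and 6.60 in TE13. At 0 h the lines were 1.06-fold apart. At both later times MET was at least 2.65-fold below 0 h in TE13R and at least 2.49-fold below 0 h in TE13. The probe passed the filter on dim probes, which asks for 3 arrays, only through both 0 h arrays and the 8 h array of TE13R. Its tests of time are therefore not read, and the lines cannot be compared at 8 and 24 h.

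EPHA2, at chr1:16124337-16156069, rose after irradiation in both lines. Its probe gave 338, 1324 and 756 in TE13R at 0, 8 and 24 h, against 316, 875 and 976 in TE13. At 8 h it was 3.91-fold above 0 h in TE13R and 2.77-fold above 0 h in TE13, a log2 change of 1.67 (SE 0.27, limma adjusted p = 0.0013). At 24 h it was 2.23-fold above 0 h in TE13R and 3.09-fold above 0 h in TE13, a log2 change of 1.35 (SE 0.27, limma adjusted p = 0.00372). Between the lines EPHA2 was 1.07-fold higher in TE13R at 0 h, 1.51-fold higher at 8 h and 1.29-fold lower at 24 h, so the ranges overlapped. The fitted log2 difference was 0.11 (SE 0.22), or 0.11 (SE 0.22) without the 0 h arrays.

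**Figure D2:**
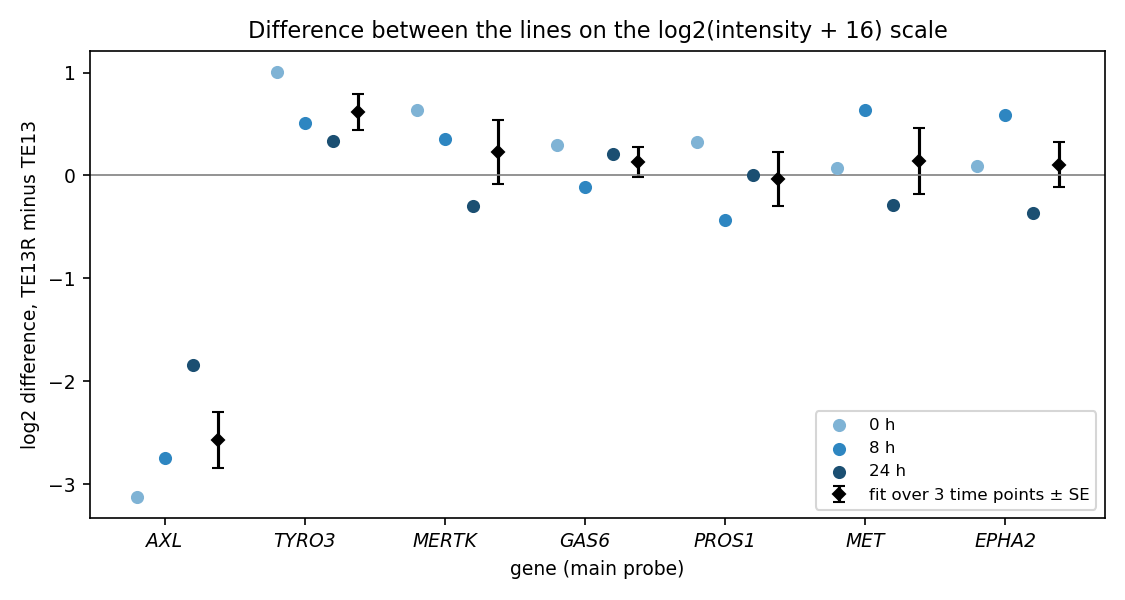
Difference of TE13R minus TE13 on the log2(intensity + 16) scale for the 7 genes at 0, 8 and 24 h (blue circles, 1 pair of arrays each) and fitted over the time points (black diamonds, bars are ± 1 SE). AXL stands at -3.12, -2.74 and -1.84, TYRO3 is above 0 at each time, and each of the other 5 genes has a negative value at 1 time point or more; the 8 and 24 h values of MET come from intensities below the detection limit.

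The share of these genes that changed with time was near that of all genes. At 8 h against 0 h, 56.3% of the 12783 genes passed the test, and of the 6 genes other than MET, TYRO3 and EPHA2 rose and AXL and PROS1 fell. At 24 h against 0 h, 55.6% of all genes passed, and of the 6 genes TYRO3 and EPHA2 rose and PROS1 fell. At 24 h against 8 h, 12.9% of all genes passed, 7.67% higher and 5.23% lower, and of the 6 genes AXL rose. Nothing particular to the set is read from these counts.

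**Figure D3:**
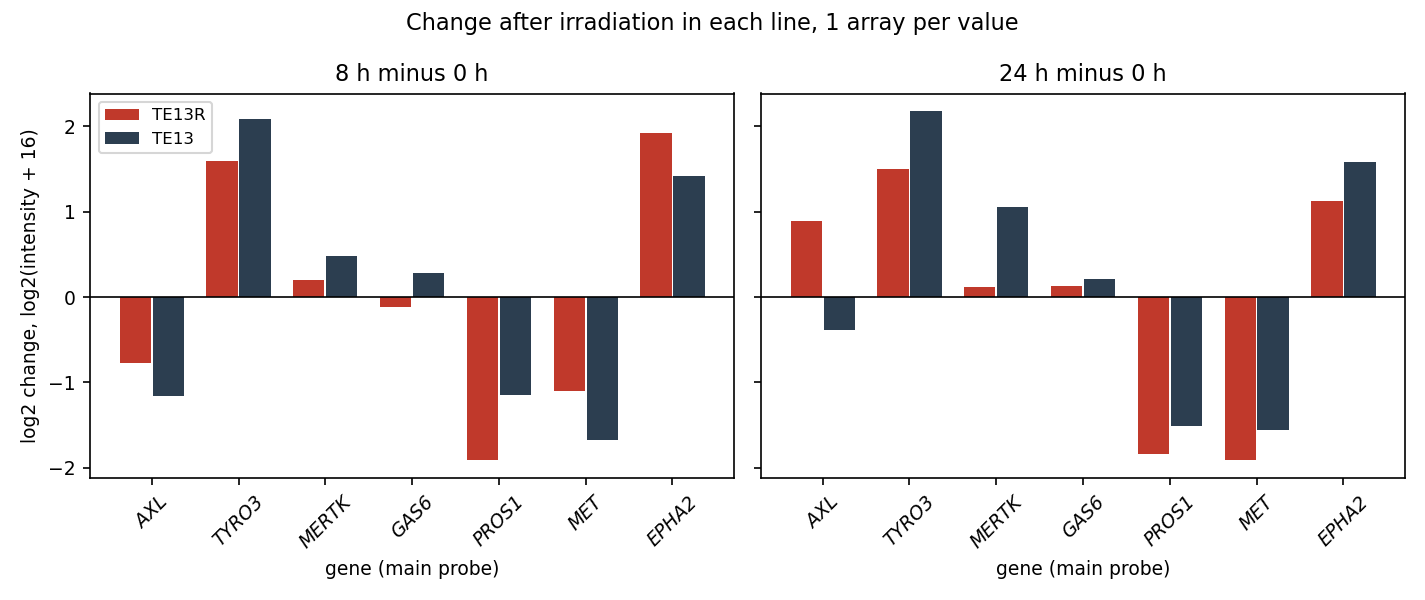
Change after irradiation in TE13R (red bars) and TE13 (dark bars) on the log2(intensity + 16) scale for the 7 genes, at 8 h minus 0 h (left) and 24 h minus 0 h (right), each bar from 1 pair of arrays. TYRO3 and EPHA2 are above 0 and PROS1 and MET below 0 in both lines at both times, MET with later intensities below the detection limit, and AXL at 24 h is 0.89 in TE13R and -0.38 in TE13.

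The genes around these receptors were read from lists of related genes, in which the difference between the lines was tested with all 12783 genes. Of all genes, 5.05% passed in TE13R against TE13, 2.61% higher and 2.45% lower, with a median log2 difference of 0.01. Among the Eph receptors and ephrins, the family of EPHA2 and its ligands, 14 of 21 genes were tested, of which 1 was higher, 1 was lower and 12 did not pass, with a median of 0.07. EFNB3, a ligand of EphB receptors, was lower in TE13R. It gave 94.0, 53.2 and 287 in TE13R at 0, 8 and 24 h, against 335, 470 and 1176 in TE13, a log2 difference of -2.15 (SE 0.27, limma adjusted p = 0.00625). EPHB4, the receptor of ephrin-B2, was higher in TE13R, with 2090, 4840 and 4167 in TE13R at 0, 8 and 24 h, against 961, 2817 and 2154 in TE13 (log2 difference 0.94, limma adjusted p = 0.0131). For both genes the value of TE13R was on the same side of TE13 at each time point, and without the 0 h arrays the log2 differences were -2.39 for EFNB3 and 0.86 for EPHB4. EFNA1, a ligand of EPHA2 named for that role, gave 4146, 2559 and 4216 in TE13R and 1712, 3034 and 4964 in TE13, and did not pass between the lines (limma, adjusted p = 0.72), with a log2 difference of 0.26 that turned to -0.24 without the 0 h arrays. At 8 h against 0 h, 4 of the 14 genes were higher and 1 was lower, with a median log2 change of 0.59, against 27.5% higher and 28.8% lower among all genes. At 24 h against 0 h, 8 of the 14 genes were higher and 1 was lower, with a median log2 change of 1.10, against 27.8% higher and 27.8% lower among all genes, whose median was 0.07.

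Of the other receptor tyrosine kinases, 25 of 40 were tested, and CSF1R alone differed between the lines, with 24 not passing and a median of 0.06. CSF1R, the receptor of macrophage colony-stimulating factor, gave 13.5, 3.13 and 34.9 in TE13R at 0, 8 and 24 h, against 36.5, 61.7 and 180 in TE13, and was above the limit on 4 arrays, 1 of them of TE13R (log2 difference -1.60, limma adjusted p = 0.0377, and -1.98 without the 0 h arrays). It is also one of the 7 macrophage and leukocyte markers. Of the others, PTPRC and AIF1 passed the limit on 0 arrays, LYZ on 1, CD163 on 4, CD14 on 5 and CD68 on 6. Of the adaptors and signalling proteins of these receptors, 29 of 37 were tested and 28 did not pass. The exception was FYN, a kinase of the SRC family, with 7.89, -8.42 and 18.03 in TE13R and 51.7, 16.8 and 67.9 in TE13, of which only the 0 and 24 h values of TE13 were above the limit. TE13R was at least 1.58-fold lower on the log2(intensity + 16) scale, but FYN passed the filter through the 3 arrays of TE13, so its test is not read, and its call was lost without the 0 h arrays (limma, adjusted p = 0.16). Without those arrays MAPK3 of this list passed, with a log2 difference of -0.56 (limma, adjusted p = 0.0488). With all arrays it was -0.30 (limma, adjusted p = 0.504).

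The genes that prepare the ligands or cut the receptors showed small differences between the lines. Of this list 14 of 17 were tested, 1 was higher, 1 was lower and 12 did not pass, with a median of -0.10. VKORC1L1, a vitamin K epoxide reductase that recycles the cofactor of carboxylation, was higher in TE13R (log2 difference 0.79, limma adjusted p = 0.0259). TIMP2, an inhibitor of metalloproteinases, was lower in TE13R (log2 difference -0.82, limma adjusted p = 0.0231). It gave 2996, 1411 and 2138 in TE13R at 0, 8 and 24 h, against 4588, 2854 and 3807 in TE13, lower in TE13R on each pair of arrays. Without the 0 h arrays the log2 differences were 0.84 for VKORC1L1 and -0.92 for TIMP2. ADAM10, a protease that sheds the outer part of AXL and was named for that role, gave 510, 37.3 and 109 in TE13R against 472, 29.8 and 44.98 in TE13. It fell by 3.36 on the log2 scale at 8 h (limma, adjusted p = 0.000288), and its difference between the lines did not pass (limma, adjusted p = 0.475).

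Of the genes for phosphatidylserine exposure and recognition of apoptotic cells, 17 of 24 were tested and 0 passed between the lines, with a median of -0.05. The largest fitted differences were those of TULP1, which has been described as a further ligand of TAM receptors, and of LRP1, a receptor for the uptake of apoptotic cells (0.70, limma adjusted p = 0.274). TULP1 was above the limit in TE13 only at 8 h and passed the filter through the 3 arrays of TE13R, so its test is not read. It gave 13.3, 245 and 26.4 in TE13R at 0, 8 and 24 h, against -8.84, 75.1 and 2.36 in TE13. Of HGF, its activators and inhibitors and the partners of MET, 12 of 18 were tested, 1 was higher, 0 were lower and 11 did not pass, with a median of -0.01. The gene that was higher is MST1, which codes for the HGF-like ligand of the MET relative MST1R. It gave 562, 46.0 and 206 in TE13R at 0, 8 and 24 h, against 113, 10.6 and 51.7 in TE13, a log2 difference of 1.70 (SE 0.28, limma adjusted p = 0.0188), with the 8 h array of TE13 below the limit. Without the 0 h arrays the difference was 1.47 and no longer passed (limma, adjusted p = 0.0548). HGF itself had 3 probes, none of them above the limit on any array.

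Of 16 transcription factors known to act on AXL, among them the AP-1, TEAD and SP families, all 16 were tested and 0 passed between the lines, with a median of 0.05. The largest fitted differences were those of TEAD2 and TEAD1, DNA-binding partners of YAP. TEAD2 gave 69.1, 158 and 181 in TE13R at 0, 8 and 24 h, against 130, 309 and 780 in TE13, a log2 difference of -1.23 (SE 0.29, limma adjusted p = 0.0581). Without the 0 h arrays it was -1.46 and passed (limma, adjusted p = 0.0239). TEAD1 was above the limit only on the 24 h array of TE13 and on 0 arrays of TE13R, and it passed the filter through the 3 arrays of TE13, so its test is not read. With time, SP1, which binds GC boxes and was named for that role, gave 1067, 297 and 347 in TE13R at 0, 8 and 24 h, against 867, 219 and 266 in TE13, and fell by 1.85 on the log2 scale at 8 h (limma, adjusted p = 0.000462). FOSL1, a subunit of AP-1 also named for its role, gave 1997, 14535 and 4946 in TE13R and 1736, 8466 and 2963 in TE13, and rose at 8 h by 2.56 on the log2 scale (limma, adjusted p = 0.000215). Between the lines its log2 difference was 0.57 with all arrays (limma, adjusted p = 0.0959). Without the 0 h arrays it was 0.76 and passed (limma, adjusted p = 0.00716). At 8 h against 0 h, 7 of the 16 factors rose and 5 fell, against 27.5% and 28.8% of all genes.

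**Figure D4:**
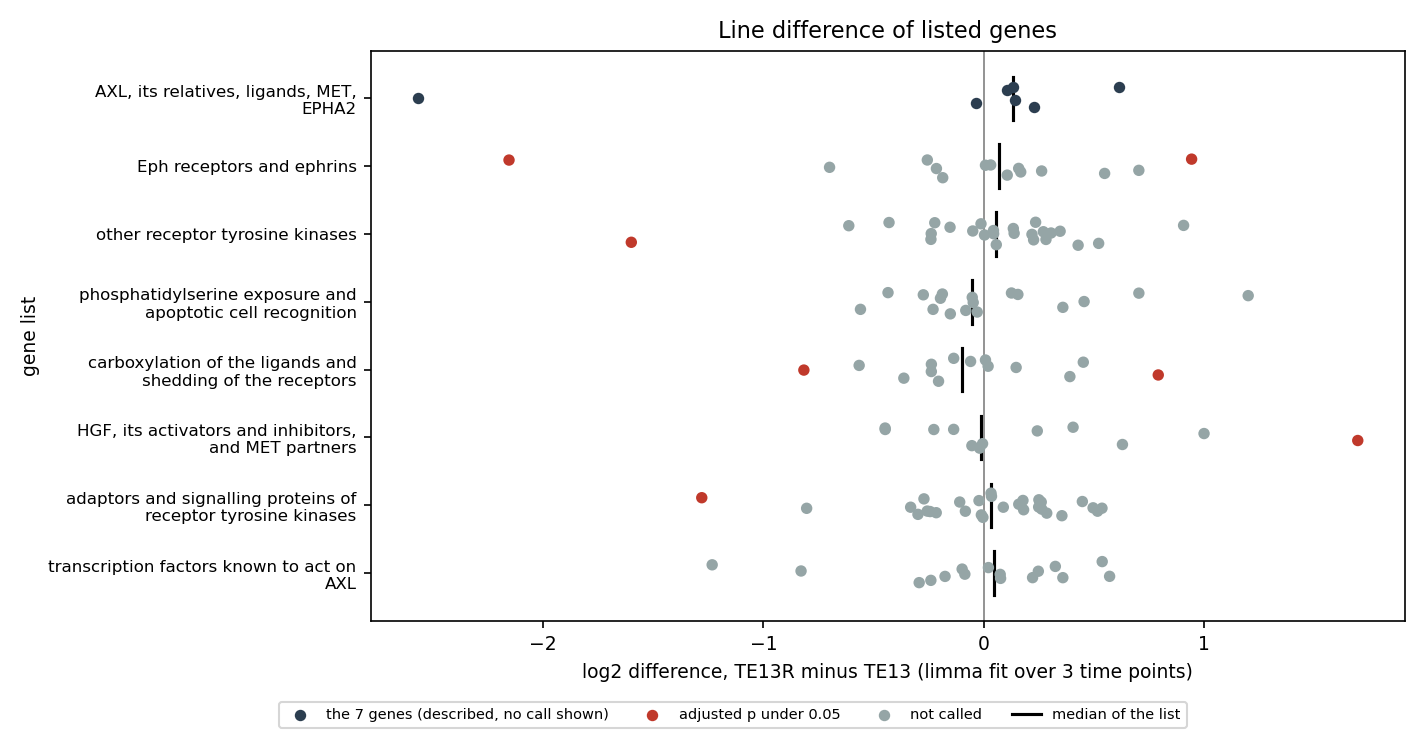
Difference of TE13R minus TE13, fitted over the 3 time points on the log2(intensity + 16) scale, for the 7 genes (dark) and for each list of related genes (grey, or red where the adjusted p is under 0.05), 1 point per gene, with a bar at the median of each list. The medians lie between -0.10 and 0.13, and AXL at -2.57 and EFNB3 at -2.15 lie farthest below 0.

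The genes whose pattern over the 6 arrays was most like that of AXL were sought among 8621 genes with an SD of at least 0.5 log2 units. Genes with provisional names (LOC, open reading frame, FLJ, KIAA and MGC names) were passed over, here and for MET and EPHA2 below. The highest correlations were those of ELOVL4 (r = 0.981), SGPL1 (0.979), SOST (0.978), SYBU (0.976) and TRIML2 (0.972), over 6 arrays that are shared by all genes and with no test. The largest step in the profile of AXL is that between the lines, so their lower level in TE13R follows largely from this choice. SOST, an inhibitor of WNT signalling best known from bone, gave 259, 100 and 482 in TE13R at 0, 8 and 24 h, against 1954, 565 and 1418 in TE13. Like AXL it was lowest at 8 h in each line, as were ELOVL4 and SYBU. SYBU, whose protein links vesicles to kinesin motors, gave 17.6, -0.58 and 66.1 in TE13R, against 495, 423 and 747 in TE13, and was above the limit in TE13R only at 24 h. ELOVL4, an elongase of very long fatty acids, gave 190, 126 and 189 in TE13R against 444, 298 and 365 in TE13. The patterns closest to MET were those of WDR37 (r = 0.996), PHTF2 (0.994) and JRKL (0.992), each high at 0 h in both lines. MET was above the limit only on the 0 h arrays and PHTF2 on 2 arrays, so these correlations rest largely on the step between 0 h and values at or below the limit. Those closest to EPHA2 were ZNF536 (0.997), TRIM60 (0.995) and TRAF4 (0.994). TRAF4, a signalling adaptor, gave 151, 1014 and 441 in TE13R at 0, 8 and 24 h, against 129, 708 and 667 in TE13, with its highest value at 8 h in each line, whereas EPHA2 was highest at 8 h in TE13R and at 24 h in TE13.

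**Figure D5:**
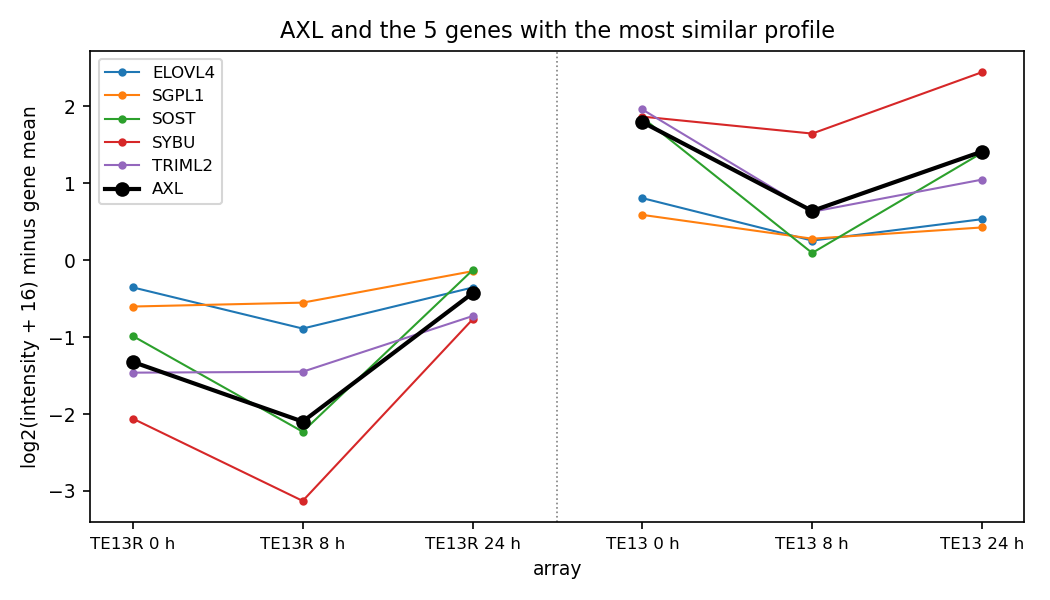
AXL (thick black) and the 5 genes with the highest correlation with it over the 6 arrays, provisional names passed over, as log2(intensity + 16) minus each gene's mean, for TE13R at 0, 8 and 24 h (left of the dotted line) and TE13 at 0, 8 and 24 h (right). All 6 genes lie lower in TE13R than in TE13 at each time point, and AXL, SOST, ELOVL4 and SYBU are lowest at 8 h in both lines. The lower level in TE13R follows largely from choosing the 5 genes by their correlation with AXL.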

How the data were processed

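The authors scanned 1-colour Illumina Human-6 V3 arrays, collected the data in BeadStudio and deposited 1 intensity per probe and array on a linear scale. Each array has values below 0, as after background subtraction. For the software version, the background correction and the normalization, not given in the sources used here, nothing was assumed, and detection p-values and bead-level errors were not used here. Of 48803 probes, 27578 have 1 gene symbol in the platform annotation, 13 have several and 21212 have none.

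Negative intensities were replaced by 0 and log2(intensity + 16) was used. A probe was kept where 3 arrays or more had it in their upper 50% (24765 probes), and the brightest probe per gene left 12783 genes. All 7 genes passed this filter, MET only through both 0 h arrays and the 8 h array of TE13R. The detection limit of an array is the root mean square of its negative values times 3. A fold is the ratio of deposited intensities, and where 1 of the 2 arrays is below the limit it is a bound, the brighter intensity over the limit. For genes that no TE13R array measured above it, the bound compares the mean log2 values of both lines, dim TE13R values being raised to the limit.

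Line and time point were fitted together in limma 3.58.1 (R 4.3.3) with lmFit and eBayes and a mean-variance trend, with 2 residual degrees of freedom and 5.75 from the prior, with Benjamini-Hochberg adjustment over the 12783 genes. The repeat of a line is its 3 time points and the repeat of a time point is the 2 lines, so p-values measure only that spread, and the number of arrays limits the precision. The script was run on simulated arrays with independent errors and the same time changes in both lines. That run checks the code, and cannot show whether the 6 arrays meet these assumptions. The members and the lists were chosen with earlier results of these data known. Genes named from the lists are those called between the lines, or, in lists with no call, the 2 with the largest difference, and genes said to be named for a role were chosen after their values were seen. Alternatives were other offsets, normalizations, filters and models, the probe mean per gene, the methods' t-test and leaving out each time point, and the other AXL probe was added after seeing the data. KY170 and KY170R arrays were not used here.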

Additional observations from a re-analysis of the deposited data

Results flagged for a closer look

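For AXL the change at 24 h against 0 h was positive in TE13R (0.89 on the log2 scale) and negative in TE13 (-0.38), a difference of 1.28 between the lines. The second AXL probe gave 0.64 in TE13R and 0.02 in TE13, with no opposite sign. The difference was not tested here or for any gene below, since each line has 1 array per time point. The change at 24 h against 8 h had opposite signs in TE13R and TE13 for TYRO3 (difference -0.18), MERTK (-0.65), GAS6 (0.32), PROS1 (0.44) and EPHA2 (-0.95). For EPHA2 this was -0.80 in TE13R and 0.16 in TE13, and for TYRO3 only -0.08 and 0.09. The second GAS6 probe had no opposite sign here (0.18 in TE13R and 0.0035 in TE13), whereas the dimmer one had (0.09 and -0.50). MERTK was close to the detection limit, and its second probe, below the limit at both times, gave -0.48 and -0.83. GAS6 also had opposite signs at 8 h against 0 h (-0.12 in TE13R and 0.28 in TE13, difference -0.40). Its second probe had them too (-0.38 and 0.27), and the dimmer one had not (0.47 and 1.33). Seen as the difference TE13R minus TE13, the sign turned between 8 h and 0 h for GAS6 (change of -0.40) and PROS1 (-0.76), between 24 h and 8 h for MERTK (-0.65), GAS6 (0.32), PROS1 (0.44) and EPHA2 (-0.95), and between 24 h and 0 h for EPHA2 (-0.46).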

How the results depend on the processing

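The fitted log2 difference of AXL between TE13R and TE13 ranged from -2.93 to -2.23 over 14 alternatives, and that of TYRO3 from 0.42 to 0.76 over 13. For these genes, changes of the filter, the time point in the model, the trend or the test could move only the SE and p, not the difference. Quantile normalization and median centring left AXL at -2.57, the arrays having nearly 1 distribution already. The ends of the AXL range came from leaving out the 24 h arrays (-2.93) and from an offset of 64 (-2.23). The sign of the differences of PROS1 (-0.22 to 0.16), MET (-0.11 to 0.35) and EPHA2 (-0.13 to 0.34) was not stable. The number of genes called between the lines was 646, and became 0 of 18665 genes with no filter on dim probes (2270 at an unadjusted p under 0.05), 174 with no mean-variance trend, 17 with no time point in the model, 142 without the 8 h arrays and 1 with the methods' t-test (517 at an unadjusted p under 0.05). At 24 h against 0 h it was 7111, and 4445 with no filter. At 24 h against 8 h it was 1648, and 0 with no filter (3765 at an unadjusted p under 0.05) and 475 with no mean-variance trend. With no filter the change of AXL at 8 h (limma, adjusted p = 0.191), that of PROS1 at 8 h (0.0527) and that of EPHA2 at 24 h (0.0635), each against 0 h, no longer passed, and with no trend that of AXL at 8 h (0.0647). The call of AXL at 24 h against 8 h was lost with offsets of 1 (limma, adjusted p = 0.0552) and 64 (0.0614), quantile normalization (0.0515), no filter (0.254) and no trend (0.102), while its log2 change stayed between 1.0 and 1.32. The calls of TYRO3 were kept under every alternative run for them. The cause of these changes was not tested. The time point pairs the arrays of the lines in the model, and leaving it out is the unpaired form given above. A block by replicate number could not be made, since the labels carry none. Low intensities limit MERTK and MET, and the calls of MST1 and FYN between the lines were lost without the 0 h arrays. Those of EFNB3, EPHB4, CSF1R, TIMP2 and VKORC1L1 were kept without them. With no filter, where 0 genes were called between the lines, all these calls were lost, and the methods' t-test could keep at most 1 of them. TEAD2, FOSL1, PLAU, SPINT1 and MAPK3 passed between the lines without those arrays and not with all arrays.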
